A study of Mus musculus with 18 samples.

Results

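Fatty acid oxidation, mitochondrial and peroxisomal, was followed through 35 genes in leukemic mouse spleens in which the gene Acly had or had not been deleted. The genes were listed by symbol, as enzymes, carriers and regulators of the pathway, with earlier results of these data known. All 35 were found among the 18329 genes of the acute table and among the 18953 genes of the survival table. By role, 5 belong to the carnitine shuttle, 8 are acyl-CoA dehydrogenases, 6 carry out the later mitochondrial steps, 4 handle unsaturated fatty acids, 3 pass on the electrons, 6 act in the peroxisome and 3 are regulators.

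Gene expression was measured by RNA sequencing of 18 spleen libraries from C57BL/6 mice given T-cell acute lymphoblastic leukemia (T-ALL). In every group, controls included, T-ALL cells with a conditional Acly allele were injected intravenously into sub-lethally irradiated mice. The KO groups received tamoxifen by intraperitoneal injection, 3 mg per mouse in corn oil, to delete the allele, and the WT groups received corn oil only, so KO and WT differ in tamoxifen as well as in Acly. The groups were KO acute (n = 4) and WT acute (n = 4), treated once the mice were overtly leukemic and collected 48 h later, and the survival groups, namely a KO first wave (n = 3), a KO second wave (n = 3) and WT (n = 4), treated 48 h after transplantation and collected at the humane endpoint. The deletion is made in the transplanted leukemia, so the host's remaining spleen cells are part of each library. Neither the source of the recombinase nor what separated the waves is stated in the labels. Whether replicate libraries stem from different mice is not stated either, so each p-value reflects only how far these samples spread, which may be technical.

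Fatty acids are broken down by beta-oxidation, in which an acyl-CoA is dehydrogenated, hydrated, dehydrogenated again and cleaved by a thiolase to release acetyl-CoA. Long chains enter mitochondria as carnitine esters, and this entry at carnitine palmitoyltransferase 1 is inhibited by malonyl-CoA, while very long and branched chains are shortened first in peroxisomes. Acly encodes ATP citrate lyase, which makes cytosolic acetyl-CoA, the precursor of malonyl-CoA, from citrate.

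Acly itself had 792.9, 803.8, 716.9 and 619.6 normalized counts in the KO acute libraries and 1422, 1129, 1231 and 1241 in the WT acute libraries, with no overlap (KO 58.4% of WT, limma adjusted p = 0.00266). Its mean was 727 ± 71.8 (SD, n = 3) in the first wave, 576 ± 75.3 (SD, n = 3) in the second wave and 1697 ± 154 (SD, n = 4) in WT survival, and no KO value reached the lowest WT value. The fall passed the threshold in the second wave (adjusted p = 0.00155) and for both waves together (adjusted p = 0.000798). In the first wave alone the adjusted p was 0.0562, and the exact two-sided permutation p was 0.0286, the smallest that the design allows. Normalized totals were 7.07 to 8.03 M per acute library and 9.19 to 10.39 M per survival library, and the tables were scaled separately, so levels were compared only within a table. The 22 thymocyte and T-ALL markers made up 0.925 to 1.31% of the normalized counts in KO acute and 1.27 to 1.46% in WT acute libraries. The 14 neutrophil markers made up 0.0222 to 0.0674% in KO acute against 0.0109 to 0.0229% in WT acute, and the 11 B cell markers 0.00672 to 0.0172% against 0.0045 to 0.0104%. In the acute groups none of these markers was at 0 in every library, while in the first wave the neutrophil markers Prtn3 and Ctsg were. The 13 mitochondrially encoded genes took 4.80% and 5.27% in KO acute libraries 1 and 2, 2.35% and 2.70% in KO acute libraries 3 and 4, and 3.5 to 3.69% in WT acute libraries.

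In the acute comparison, 48 h after treatment, 2 of the 33 oxidation genes tested were called lower and 0 were called higher. They were Acaa1a, the peroxisomal 3-ketoacyl-CoA thiolase, and Hsd17b10, a mitochondrial dehydrogenase that acts in isoleucine breakdown and is also a subunit of mitochondrial RNase P. The other 31 tested members did not pass the threshold of an adjusted p under 0.05, with p-values adjusted over all genes tested. Across all 14184 genes tested, 12.6% passed it, 4.58% higher and 8.07% lower, so the 6.06% of members past it is below that background. At an unadjusted p under 0.05 there were 7 members (21.2%), where all genes gave 28.1%. The groups did not overlap for 3 members, all lower in KO (Acaa1a, Hsd17b10 and Acad9), or 9.09% of those tested, beside 19% of all genes and 11% that were lower without overlap.

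The median log2 fold change of the 33 members was -0.16, beside 0.03 for all genes tested. The members had 13 positive and 20 negative values, between -1.41 and 0.88, and all genes 7439 positive and 6745 negative values. With a minimum mean of 50, which 31 members met, the median of all genes was -0.03. Fold changes here are KO minus WT on the log2(normalized count + 1) scale, on which changes of low genes come out too small. Eci1 and Ppara were not tested, since their mean over the acute libraries was under the minimum of 10. The 95% intervals lay within a 2-fold change in either direction for 22 of the 33 members and within a 1.5-fold change for 8, so for the other members a change of 2-fold was not outside the interval.

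**Figure D1:**
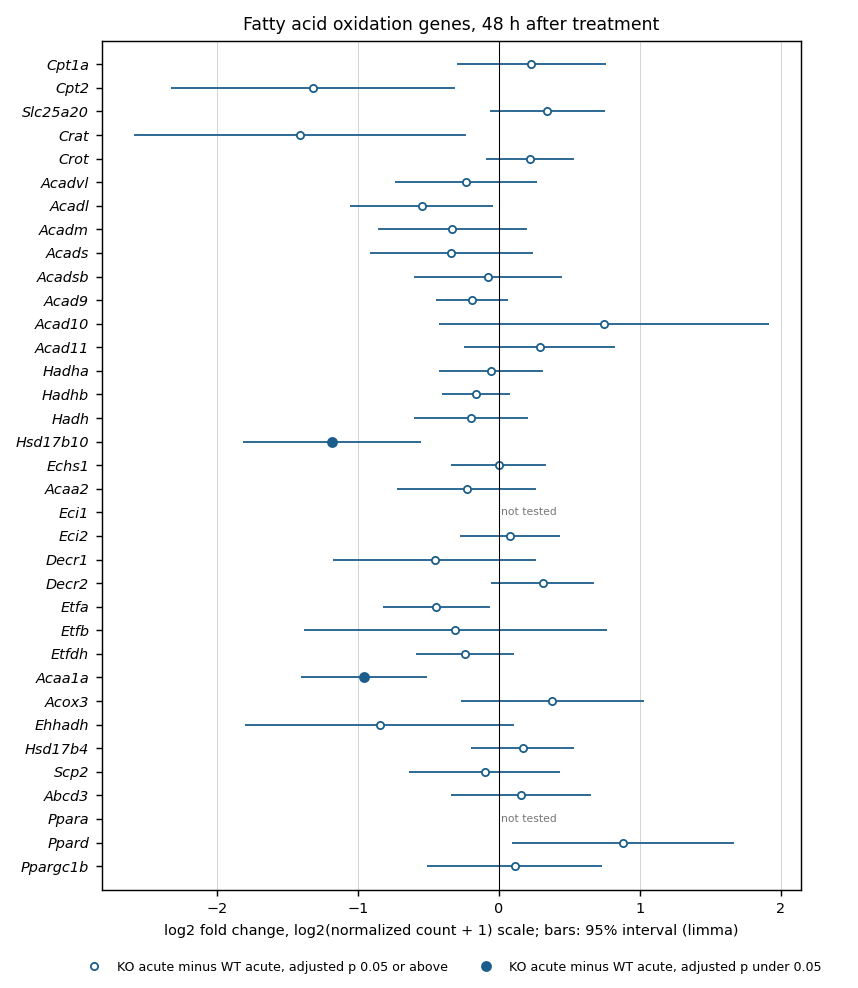
Log2 fold change of each oxidation gene, KO acute minus WT acute (n = 4 and 4), with the 95% interval from limma as a bar and filled points for genes past the threshold. Acaa1a and Hsd17b10 are the 2 filled points, both to the left of 0, and Cpt2 and Crat have lower estimates with wider bars.

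Acaa1a had 324.4, 278.3, 402.6 and 316.6 normalized counts in the KO acute libraries. In the WT acute libraries it had 690.5, 709.1, 820.9 and 405.2. Each KO library was below each WT library, although WT acute library 4 was nearly level with KO acute library 3. The mean fell from 656 ± 177 (SD, n = 4) to 331 ± 52.1 (SD, n = 4), which is 50.4% of WT, with a log2 fold change of -0.95 (SE 0.21, 95% interval -1.40 to -0.51, limma adjusted p = 0.00990). Acaa1a lies on mouse chromosome 9, 119339676 to 119350299, plus strand (GRCm38, GENCODE M21). Of the 31-base stretches of its principal transcript, 43.8% also occur in Acaa1b, its near-identical paralog, which was not analysed here, so the value may hold reads of either gene. In bulk spleen, fewer cells of a type and less RNA per cell cannot be told apart for this or any other member. Without KO acute libraries 1 and 2, the pair with the high mitochondrial share, the log2 fold change was -0.83 with an adjusted p of 0.0680, and with a single prior variance for all genes in place of a trend with expression the adjusted p was 0.0604.

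Hsd17b10 had 47.2, 70.7, 86.5 and 60.9 normalized counts in the KO acute libraries and 98.1, 142, 157 and 222 in the WT acute libraries. The groups did not overlap, and WT acute library 4 was the highest of the 8. The mean fell from 155 ± 51.1 (SD, n = 4) to 66.3 ± 16.6 (SD, n = 4), or 42.9% of WT, with a log2 fold change of -1.18 (SE 0.29, 95% interval -1.81 to -0.55, limma adjusted p = 0.0183). The gene lies on chromosome X, 152001845 to 152004442, plus strand (GRCm38), and none of its 31-base stretches occur in another annotated gene. The call was lost without WT acute library 4 (log2 fold change -0.99, adjusted p 0.0749), without KO acute libraries 1 and 2 (-1.02, adjusted p 0.0916) and with a single prior variance (adjusted p 0.0523). Both genes moved beside a lower median share of thymocyte and T-ALL markers (1.11% against 1.35%) and higher median shares of neutrophil (0.0422% against 0.0169%) and B cell markers (0.00896% against 0.00491%) in KO acute spleens. The 13 erythroid markers had a lower median share (0.105% against 0.199%), with KO acute libraries 1, 3 and 4 below every WT acute library. The part of these shares in the result was not tested.

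The promoters of these genes are shown because they are the oxidation genes that passed the acute threshold. Each line gives the 250 bases before the gene's start as RefSeq annotates it (GRCm38.p6), read 5′ to 3′ on the plus strand, with capitals for the letters CCAAT or their reverse complement ATTGG. The RefSeq starts lie downstream of the GENCODE gene starts given above, so the Acaa1a stretch falls inside the GENCODE interval of the gene and the Hsd17b10 stretch ends inside it. The Acaa1a stretch is chr9:119341044-119341293 and the Hsd17b10 stretch is chrX:152001646-152001895.
Acaa1a: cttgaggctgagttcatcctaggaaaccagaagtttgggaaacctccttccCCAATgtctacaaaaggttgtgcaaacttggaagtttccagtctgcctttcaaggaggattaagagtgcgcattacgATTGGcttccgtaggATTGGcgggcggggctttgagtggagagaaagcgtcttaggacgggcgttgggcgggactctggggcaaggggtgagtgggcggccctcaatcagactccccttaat
Hsd17b10: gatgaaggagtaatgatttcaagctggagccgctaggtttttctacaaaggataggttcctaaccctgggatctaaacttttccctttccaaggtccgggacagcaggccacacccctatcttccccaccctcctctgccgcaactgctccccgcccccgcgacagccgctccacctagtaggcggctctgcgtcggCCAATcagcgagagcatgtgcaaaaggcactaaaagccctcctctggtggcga
The stretch of Acaa1a holds 3 such matches and that of Hsd17b10 holds 1. In windows from 250 bases before to 50 bases after the start, searched on both strands, CCAAT was found for 12 of the 29 members with a RefSeq promoter (41.4%) and for 41.1% of all 27025 genes. The direct repeat of AGGTCA with 1 base between its copies, of the kind that PPAR receptors bind, was found for 0 of the 29 members and for 0.0481% of all genes. The single motif AGGTCA, which is contained in that repeat, was found for 5 members (Cpt1a, Acadvl, Acadm, Echs1 and Scp2), or 17.2%, beside 18.1% of all genes. The palindromic consensus site of the factor NRF1 was found for 3 members (Acad10, Etfdh and Ppara), or 10.3%, beside 1.07% of all genes. The letters TCAAGGTCA, the form that estrogen-related receptors bind and which also contains AGGTCA, were found for 0 members and for 0.466% of all genes. A match describes these letters only, and none of the 3 NRF1-site genes passed the threshold in a comparison in which it was tested.

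**Figure D2:**
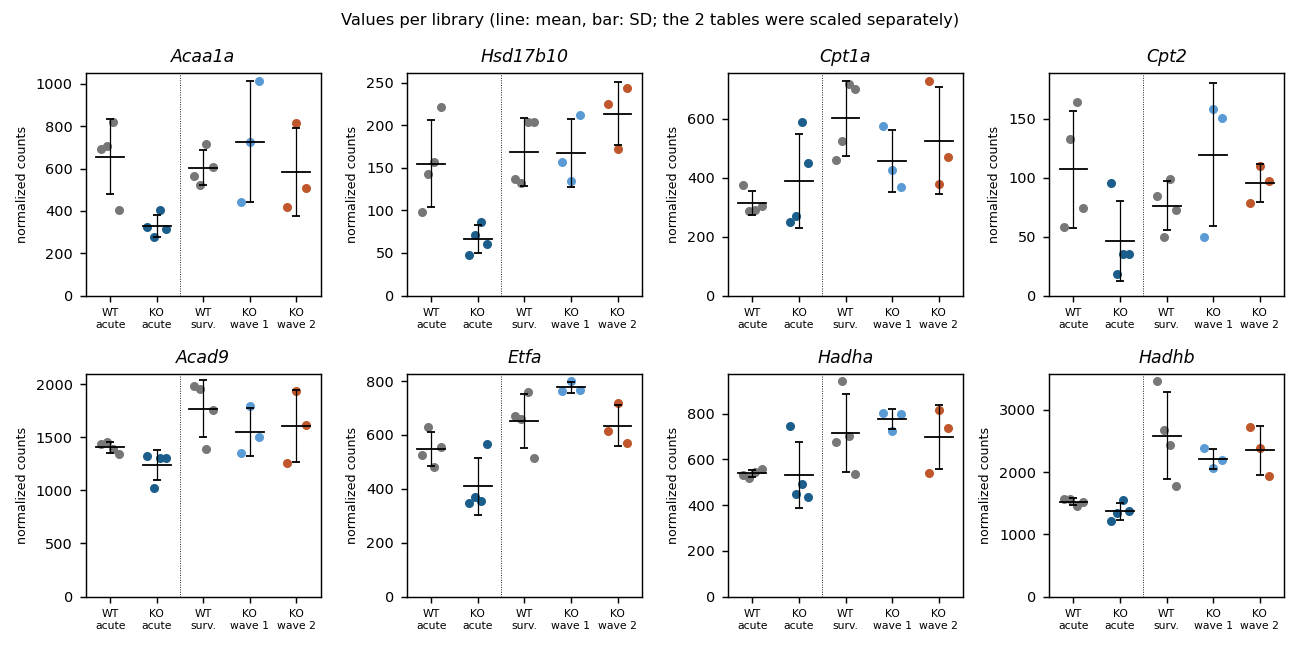
Normalized counts of 8 oxidation genes in each library, by group, with the group mean and SD. Acaa1a and Hsd17b10 are separate between KO acute and WT acute and overlap between the survival groups.

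None of the 5 genes of the carnitine shuttle passed the acute test, and their median log2 fold change was 0.22. Cpt1a, the outer-membrane transferase that commits long chains to oxidation, had 249.5, 271.4, 587.9 and 449.3 normalized counts in KO acute libraries and 373.9, 285.8, 288.5 and 304.9 in WT acute libraries. KO acute libraries 1 and 2 were below all WT libraries and KO acute libraries 3 and 4 were above them. The log2 fold change of Cpt1a was 0.23 (95% interval -0.30 to 0.76, adjusted p = 0.579), and without KO acute libraries 1 and 2 it was 0.72 with an adjusted p of 0.0484. Slc25a20, the carnitine-acylcarnitine carrier, had a log2 fold change of 0.35 (adjusted p = 0.257), and Crot, the peroxisomal carnitine octanoyltransferase, one of 0.22 (adjusted p = 0.341). Cpt2, the inner-membrane transferase that returns the acyl group to CoA, had 95.95, 18.51, 35.51 and 35.38 normalized counts in KO acute and 57.8, 132.8, 164.1 and 74 in WT acute libraries. KO acute library 1 lay among the WT values and the other 3 KO libraries lay below them. Its log2 fold change was -1.32 (95% interval -2.33 to -0.31, adjusted p = 0.0815), and -1.75 without KO acute library 1 (adjusted p = 0.0238). Crat, which moves acetyl groups between CoA and carnitine, had 13.1, 17.51, 78.67 and 20.76 normalized counts in KO acute and 31.61, 62.15, 121.3 and 89.07 in WT acute libraries. All KO values but that of library 3 were below the WT range. The log2 fold change was -1.41 (95% interval -2.59 to -0.23, adjusted p = 0.109), and -1.95 without KO acute library 3 (adjusted p = 0.0213). For Cpt1a, Cpt2 and Crat, the libraries left out here were those lying against the difference. A larger difference therefore follows from that choice and adds no support. With any other single library left out, none of these genes was called.

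Of the 8 acyl-CoA dehydrogenases, which carry out the first oxidation step and differ in the chain length they accept, 0 passed the acute test, 6 had negative values and the median was -0.21. Acadl, for long chains, had 88.83, 179.5, 128 and 110.5 normalized counts in KO acute and 176.8, 175.3, 161.5 and 207.9 in WT acute libraries. Of its KO libraries only library 2 reached the WT range, and the log2 fold change was -0.55 (SE 0.24, adjusted p = 0.148). Acad9, which is best known as an assembly factor of respiratory complex I, had 1025 to 1328 normalized counts in KO acute and 1340 to 1452 in WT acute libraries. Its groups did not overlap, but the difference was small, with a log2 fold change of -0.19 (SE 0.12, adjusted p = 0.323). Acadvl, for very long chains, had a log2 fold change of -0.23, Acadm, for medium chains, -0.33, Acads, for short chains, -0.34, and Acadsb, for short branched chains, -0.08. Their adjusted p-values were 0.410 to 0.869. Acad10 and Acad11, less studied relatives, had log2 fold changes of 0.75 (SE 0.54, adjusted p = 0.397) and 0.29 (SE 0.25, adjusted p = 0.479).

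Among the 6 genes of the later mitochondrial steps, only Hsd17b10 passed the acute test. Hadha and Hadhb encode the subunits of the mitochondrial trifunctional protein, and had log2 fold changes of -0.05 (95% interval -0.42 to 0.31) and -0.16 (95% interval -0.40 to 0.08). Echs1, the short-chain enoyl-CoA hydratase, had 1173 ± 215 (SD, n = 4) normalized counts in KO acute and 1169 ± 188 (SD, n = 4) in WT acute, a log2 fold change of 0.00 with a 95% interval of -0.34 to 0.34. Hadh, the dehydrogenase for medium and short chains, had a log2 fold change of -0.20 (adjusted p = 0.536), and Acaa2, the mitochondrial thiolase, one of -0.23 (adjusted p = 0.557). Acaa2 had 308.5 and 314.4 normalized counts in KO acute libraries 1 and 2 and 580 and 562.7 in libraries 3 and 4, with WT acute values of 398.9 to 642.5 between and above them.

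Eci1, Eci2, Decr1 and Decr2 rearrange the double bonds of unsaturated fatty acids, and 0 of the 3 tested passed the acute test. Eci2 had a log2 fold change of 0.08, Decr1, the mitochondrial 2,4-dienoyl-CoA reductase, -0.45, and Decr2, its peroxisomal counterpart, 0.31, with adjusted p-values of 0.249 to 0.795. Eci1 was low in every acute library, with 3.195 to 21.5 normalized counts in KO and 0 to 15.03 in WT. All 3 genes of electron transfer had negative values and 0 passed the test. Etfa, a subunit of the electron transfer flavoprotein that takes electrons from the dehydrogenases, had 347.8, 370.4, 353 and 568.4 normalized counts in KO acute libraries and 523.9, 630.7, 482.8 and 553.8 in WT acute libraries. KO acute library 4 lay within the WT range and the other KO libraries lay below it. The log2 fold change of Etfa was -0.44 (SE 0.18, adjusted p = 0.119), and -0.61 without KO acute library 4 (adjusted p = 0.0251). That library lies against the difference, so a larger difference follows from leaving it out. With any other single library left out, Etfa was not called. Etfb, the other subunit, had a log2 fold change of -0.31 (SE 0.50) and Etfdh, which passes the electrons to ubiquinone, one of -0.24 (SE 0.16), with adjusted p-values of 0.733 and 0.366.

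In the peroxisomal group Acaa1a passed the acute test and the other 5 genes did not. Ehhadh, the L-bifunctional enzyme, had 50.16, 14.54, 30.84 and 18.49 normalized counts in KO acute and 35.53, 35.83, 53.51 and 69.09 in WT acute libraries. These ranges overlapped through KO acute library 1, and the log2 fold change was -0.85 (SE 0.44, adjusted p = 0.232). Hsd17b4, the D-bifunctional enzyme, had a log2 fold change of 0.17, and Acox3, an acyl-CoA oxidase for branched chains, one of 0.38. Scp2, which holds a thiolase for branched chains, had a log2 fold change of -0.10 and Abcd3, a transporter of acyl-CoAs into the peroxisome, one of 0.16. The adjusted p-values of these 4 genes were 0.444 to 0.831.

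The regulators are nuclear receptors of the PPAR family, which switch on oxidation genes when they bind fatty acids, and the coactivator Ppargc1b. Ppard had 155.3, 103, 207.9 and 110.9 normalized counts in KO acute libraries and 37.09, 78.66, 141 and 75.01 in WT acute libraries. All WT libraries but library 3 were below the KO range. The log2 fold change of Ppard was 0.88 (SE 0.37, 95% interval 0.10 to 1.67, adjusted p = 0.130), the highest value among the tested members. Ppargc1b had a log2 fold change of 0.11 (SE 0.29, adjusted p = 0.837). Ppara was listed at 0 in 3 KO acute and 2 WT acute libraries, and at 17.93 in KO acute library 1.

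At the humane endpoint, 0 of the 34 tested oxidation genes passed the threshold in the first wave, in the second wave, in both waves together or between the waves. Beside these counts, 0% of the 14286 genes tested passed in the first wave, 0.224% in the second wave, 0.021% for both waves together and 0.119% between the waves. At an unadjusted p under 0.05 the members also gave 0 in each of these comparisons, where all genes gave 8.02%, 13%, 12.9% and 6.34% in that order. The median log2 fold change of the members was 0.04 in the first wave and -0.09 in the second, beside 0.01 and -0.01 for all genes, and the waves share the WT libraries. Ppara was under the minimum mean and was not tested. The 95% intervals lay within a 2-fold change for 24 members in the first wave and 23 in the second, and within a 1.5-fold change for 5 and 10. For both waves together they lay within a 2-fold change for 25 members and within a 1.5-fold change for 13.

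**Figure D3:**
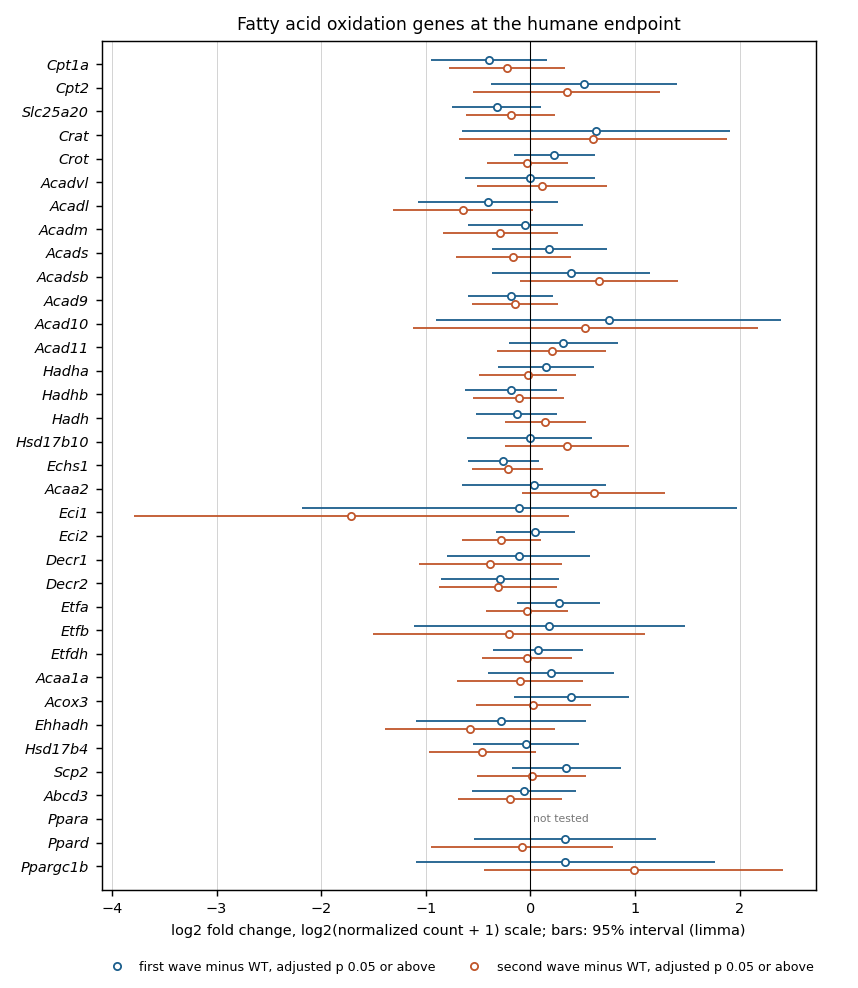
Log2 fold change of each oxidation gene in the first wave (n = 3) and in the second wave (n = 3), each minus WT survival (n = 4), with the 95% interval from limma as a bar. No point is filled, since 0 members passed the threshold, and the 95% intervals of all 34 tested genes include 0.

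The genes called lower in the acute spleens were near the WT level at the endpoint. Acaa1a had 443.6, 725.3 and 1014 normalized counts in the first wave, 420.5, 817.5 and 509.1 in the second wave, and 563.7, 524.6, 717.7 and 608.9 in WT survival. Both waves spread on either side of the WT range, with log2 fold changes of 0.20 (95% interval -0.41 to 0.80) and -0.10 (95% interval -0.70 to 0.50). Hsd17b10 had 157.1, 134 and 211.3 normalized counts in the first wave, 225.2, 171.7 and 243.4 in the second wave, and 136.6, 132.3, 203.5 and 203.4 in WT survival. Its groups overlapped, with log2 fold changes of -0.01 (95% interval -0.60 to 0.59) and 0.35 (95% interval -0.24 to 0.94). Neither of the endpoint intervals of Hsd17b10 holds the acute estimate of -1.18, and none of those of Acaa1a holds its acute estimate of -0.95. The difference in fold change between acute and endpoint was not tested.

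The carnitine shuttle genes overlapped between the KO and WT groups at the endpoint. Cpt1a had 456 ± 106 (SD, n = 3) normalized counts in the first wave, 524 ± 181 (SD, n = 3) in the second and 600 ± 129 (SD, n = 4) in WT survival, with log2 fold changes of -0.40 and -0.22. Cpt2 had log2 fold changes of 0.51 (SE 0.42) and 0.35 (SE 0.42), and Crat of 0.63 (SE 0.60) and 0.60 (SE 0.60), with adjusted p-values of 0.699 to 0.765. Crat in second-wave library 1 was at 179 normalized counts, above the other 9 survival libraries, which had 15.26 to 81.81. Slc25a20 had log2 fold changes of -0.32 and -0.19, and Crot of 0.23 and -0.03.

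Of the 8 dehydrogenases at the endpoint, Acadl had the lowest unadjusted p in the second wave. Its values were 310.5, 208.2 and 229.1 normalized counts in the first wave, 229.6, 227.9 and 171.6 in the second, and 463.1, 441.9, 300.2 and 182 in WT survival. WT survival library 4 was as low as the KO libraries, and the log2 fold changes were -0.40 and -0.64 (SE 0.31 for each, adjusted p = 0.718 and 0.407). Acadsb had 411.1, 337.3 and 504.1 normalized counts in the first wave, 416.6, 431.8 and 684 in the second, and 237.6, 240, 244.5 and 702.2 in WT survival. All 6 KO libraries were above WT libraries 1 to 3 and below WT library 4, and the log2 fold changes were 0.39 and 0.66 (adjusted p = 0.759 and 0.445). Acad9, Acadvl, Acadm, Acads and Acad11 had log2 fold changes between -0.29 and 0.32 in each wave. Acad10 ranged from 14.57 to 146.9 normalized counts within WT survival alone, which covers every KO value.

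In the later mitochondrial steps, Acaa2 had 1349, 603.1 and 1761 normalized counts in the second wave, 947.8, 690.1 and 670.7 in the first, and 919.6, 554, 974.8 and 609.2 in WT survival. Second-wave libraries 1 and 3 were above the other 8 libraries, and the log2 fold change of the second wave was 0.60 (95% interval -0.08 to 1.29, adjusted p = 0.441). Echs1 had 1168 ± 96.5, 1201 ± 76.2 and 1401 ± 160 normalized counts (SD) in the first wave, the second wave and WT survival, with log2 fold changes of -0.26 and -0.22 (SE 0.16 for each). Hadha, Hadhb and Hadh had log2 fold changes between -0.19 and 0.15 in each wave.

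Groups without overlap at the endpoint were few. In the first wave Etfa had 761.7, 801 and 768.8 normalized counts, above 669.8, 658.7, 757.9 and 515.9 in WT survival, and it was the 1 member of 34 without overlap, where 8% of all genes had none (4.4% higher). Its log2 fold change was 0.27 (SE 0.18, adjusted p = 0.681), and in the second wave -0.03. In the second wave Eci2 and Hsd17b4 were the members without overlap, both lower, beside 9.66% of all genes (4.62% lower). Eci2, an enoyl-CoA isomerase, had 650, 710.2 and 665.8 normalized counts, below 829.1, 917.1, 780.6 and 753.8 in WT survival, with a log2 fold change of -0.28 (SE 0.18, adjusted p = 0.532). Hsd17b4 had 235.4, 301 and 312.8 normalized counts, below 386.4, 370, 353.3 and 444.4 in WT survival, with a log2 fold change of -0.46 (SE 0.24, adjusted p = 0.433). For both waves together 0 members were without overlap, beside 2.12% of all genes. Of the other peroxisomal genes, Acox3, Scp2 and Abcd3 had log2 fold changes between -0.19 and 0.39 in each wave, and Ehhadh had -0.28 and -0.58. Decr1, Decr2, Etfb and Etfdh had values between -0.38 and 0.18.

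Among the regulators, Ppargc1b had 93.24, 229.9 and 72.16 normalized counts in the second wave and 39.31, 17.3, 70.46 and 226.8 in WT survival. A single library in each group was far above the rest, and the log2 fold change was 0.99 with a wide 95% interval of -0.44 to 2.42. Ppard had log2 fold changes of 0.33 and -0.08 (SE 0.41 for each). Eci1 had the lowest value of the second wave, -1.71 (SE 0.97, adjusted p = 0.479), on counts of 0.6504 to 8.061 against 7.536 to 53.29 in WT survival.

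Between the waves, the median log2 fold change of the members, second minus first, was -0.17, beside -0.01 for all genes, with 11 positive and 23 negative values. All 6 peroxisomal genes had negative values, with a median of -0.31, and 0 of them passed the test. The 4 genes for unsaturated fatty acids and the 3 of electron transfer were also all negative, each with a median of -0.30. Of the 6 genes of the later mitochondrial steps 5 were positive, with a median of 0.17. Among 18 other peroxisomal oxidation enzymes outside the members 10 were negative, with a median of -0.02. Of all 14286 genes tested, 7294 were negative. Crot had 642.5, 635.4 and 632.7 normalized counts in the second wave and 715.1, 800.2 and 771.5 in the first, a log2 fold change of -0.26 (SE 0.19, adjusted p = 0.926). Etfa had 615.6, 718.1 and 569.7 in the second wave against the first-wave values given above, a log2 fold change of -0.30 (SE 0.20, adjusted p = 0.915). Crot and Etfa were the 2 members without overlap between the waves, both lower in the second, beside 13.6% of all genes (7.29% lower). In the second wave the 11 B cell markers made up 0.00257 to 0.00306% of the normalized counts, against 0.00387 to 0.00461% in the first wave and 0.00423 to 0.00747% in WT survival, and the 22 thymocyte and T-ALL markers 1.03 to 1.16%, against 1.28 to 1.57% and 0.792 to 1.33%. The part of these shares in the difference was not tested.

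Levels of different genes were compared as normalized counts per kb of the principal transcript. In WT acute spleens Echs1 (751 ± 121, SD, n = 4) and Hadhb (745 ± 28.0) were the highest members, and they did not differ beyond their spread. Etfa (394 ± 44.9), Acaa1a (373 ± 101), Hadh (361 ± 51.7) and Acad9 (358 ± 13.1) followed, again within their spread of each other. The median member was at 91.2 per kb. Acad10 (12.2 ± 5.68), Eci1 (6.18 ± 5.42) and Ppara (0.563 ± 0.658) were the lowest. In KO acute spleens Acaa1a was at 188 ± 29.6 per kb and held rank 12 of the 35 in place of rank 4, and Hsd17b10 was at 68.9 ± 17.2 and held rank 19 in place of rank 13. In each survival group Hadhb was the highest and Ppara the lowest. Cpt1a, at 72.6 ± 9.57 per kb in WT acute, was above Cpt2 at 45.2 ± 21.0.

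**Figure D4:**
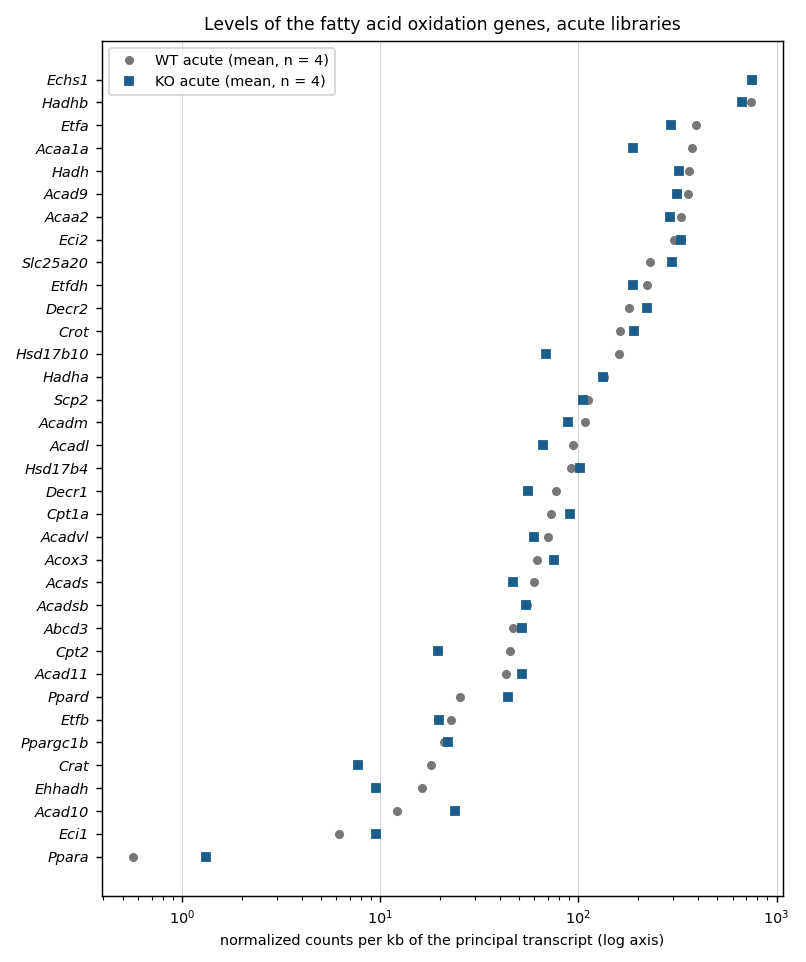
Normalized counts per kb of each oxidation gene in KO acute and WT acute (n = 4 and 4), on a log axis, as group means. Echs1 and Hadhb lead both groups, and the members span from 0.563 to 751 per kb in WT acute.

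Subunits of the same protein differed in level. Hadha was at 134 ± 4.06 per kb and Hadhb at 745 ± 28.0 in WT acute, and Etfa was at 394 ± 44.9 and Etfb at 22.7 ± 2.92. For both pairs a large share of one subunit's transcript is found in another annotated gene. Of the 31-base stretches of Hadhb, 64.7% occur in Gm13910, a processed pseudogene, and of those of Etfb, 68.0% occur in Gm45233, a gene model that overlaps Etfb. How the estimated counts were divided between such genes was not tested, so these levels are uncertain. Of the 35 members, 13 share no 31-base stretch with another gene and 11 share more than 10%. Among the 11, Scp2 shares 45.4% with Scp2-ps2, Acadvl 32.7% with its overlapping neighbour Dvl2 and Acad10 26.0% with its paralog Acad12.

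Beyond the members, 130 further gene symbols of the pathway were listed in 9 groups by function, with a gene entered under an old and a new symbol. Of the listed genes, 108 were tested in the acute table. Of these, 1 was called higher and 3 were called lower. That is a smaller share than the 12.6% of all genes past the test (4.58% higher and 8.07% lower). The median log2 fold change of the 108 genes was 0.02, beside 0.03 for all genes. Fabp5, which carries fatty acids in the cytosol, had 280.8, 388.2, 632.2 and 529.2 normalized counts in KO acute libraries and 1229, 1251, 1289 and 1244 in WT acute libraries. The KO libraries were all far below the WT libraries, with a mean at 36.5% of WT and a log2 fold change of -1.52 (SE 0.20, adjusted p = 0.000969). Ucp2, a mitochondrial carrier and a known PPAR target, fell from 3941 ± 646 to 1734 ± 182 (SD, n = 4 each), a log2 fold change of -1.17 (SE 0.13, adjusted p = 0.000759). The calls of Fabp5 and Ucp2 held under all 19 alternatives run. The list of PPAR targets, which holds Ucp2, had 1 gene of 8 past the test and a median of -0.72, and the list of uptake, binding and activation, which holds Fabp5, had 1 of 13.

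The acute list of malonyl-CoA control held 9 tested genes, of which 1 was called higher and 1 was called lower. Acaca, the acetyl-CoA carboxylase that makes malonyl-CoA, had 2311, 2120, 1888 and 1743 normalized counts in KO acute and 1257, 1283, 1201 and 1927 in WT acute libraries. WT acute library 4 lay among the KO libraries, and the log2 fold change was 0.53 (SE 0.15, adjusted p = 0.0387). Prkaa1, a catalytic subunit of the AMP-activated kinase that inhibits this carboxylase, had 650.3, 536.2, 518.5 and 597.5 normalized counts in KO acute and 718.8, 851.8, 792.3 and 888.3 in WT acute libraries. Its groups did not overlap, and the log2 fold change was -0.50 (SE 0.13, adjusted p = 0.0266). The call of Acaca was lost under 9 of 19 alternatives and that of Prkaa1 under 11 of 19. In the lists of carnitine supply (7 tested), branched-chain oxidation (13), other peroxisomal enzymes (18), peroxins (16), nuclear receptor control (16) and ketone bodies and thioesterases (8), 0 genes passed the acute test. For nuclear receptor control 13 of 16 values were positive, with a median of 0.17, where 7439 of all 14184 genes were positive, with a median of 0.03.

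At the endpoint 109 genes of these lists were tested, and 0 passed in the first wave and for both waves together, with medians of -0.05 and -0.06. Fabp5, Ucp2 and Prkaa1, which fell acutely, had KO means above the WT mean there, and none passed the threshold in these 2 comparisons or in the second wave against WT. Fabp5 had 1806 ± 218 normalized counts in the first wave (SD, n = 3), 1483 ± 294 in the second (SD, n = 3) and 1439 ± 353 in WT survival (SD, n = 4). Ucp2 had 5123 ± 308, 4247 ± 1134 and 3848 ± 604 in the same order. For Fabp5 both waves overlapped WT, while for Ucp2 the first-wave libraries lay above all WT libraries and the second-wave libraries overlapped them. Prkaa1 had 369.5, 286.6, 1033 and 848.1 normalized counts in WT survival, so that its WT libraries spread more widely than either wave (866.5 to 1169).

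**Figure D5:**
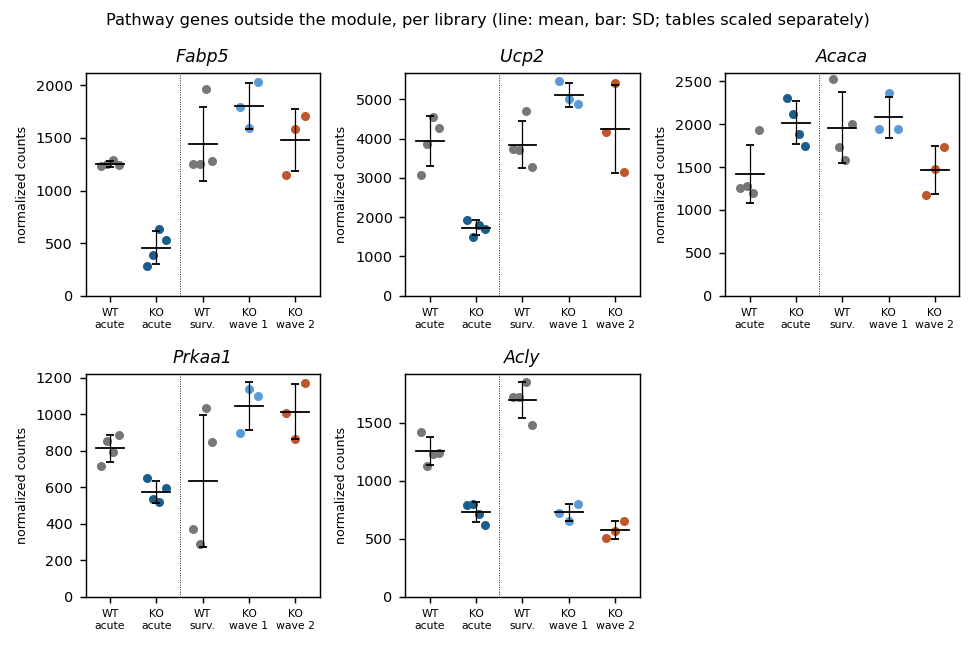
Normalized counts of the named genes of the wider pathway in each library, by group, with the group mean and SD. Fabp5 and Ucp2 are lower in all KO acute libraries than in all WT acute libraries.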

How the data were processed

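RNA from leukemic spleens was sequenced by the submitters as 18 strand-specific libraries. The authors deposited a table for the acute and another for the survival libraries, whose values are treated here as a signal: per the submitters' processing notes, counts per gene estimated with kallisto 0.44.0 on GRCm38 and scaled by DESeq. The version of DESeq, the annotation and the strand setting used are not stated in these sources. Of the values under 8, 38.1 to 63.4% were whole multiples of a library's step within 0.02, so reads were not recovered and no count model was used. From these steps, libraries held an estimated 6.1 to 12.7 M reads.

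Values were taken as log2(value + 1), and limma 3.58.1 (R 4.3.3, lmFit and eBayes with trend) was run on genes with a table mean of at least 10, with Benjamini-Hochberg adjustment over all genes tested, a threshold of 0.05 and 95% intervals. The acute fit held 8 libraries and the survival fit all 10. The fits were tested on simulated data. Alternatives changed the pseudocount, filter, scaling, prior, block or libraries. Gene positions and transcripts came from GENCODE M21, and promoters from RefSeq. All 35 members may be named, with Acly and up to 8 called genes per comparison from the pathway lists. The members and lists were chosen with earlier results of these data known. A result of the pathway lists is not reported here.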

Additional observations from a re-analysis of the deposited data

Results flagged for a closer look

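In groups of 4 libraries, 123 combinations of a gene and a group were searched for a single library far from the rest, and 9 stood out. For normally distributed values chance gives about 1 in 20 such groups. That rate need not hold for skewed counts, nor for a group listed mostly at 0, such as Ppara in KO acute. Among the members, Crat in KO acute library 3 was at 78.67 normalized counts, above the others at 13.1 to 20.76. Acad9 in KO acute library 2 was at 1025, below the others at 1302 to 1328. Etfa in KO acute library 4 was at 568.4, above 347.8 to 370.4. Ppara in KO acute library 1 was at 17.93, where the other KO acute libraries are listed at 0. Ppargc1b in KO acute library 1 was at 95.05, above 73.95 to 77.16. Acadsb in WT survival library 4 was at 702.2, above 237.6 to 244.5. Eci1 in WT survival library 2 was at 53.29, above 7.536 to 9.737. Of the wider pathway, Acaca in WT acute library 4 was at 1927 against 1201 to 1283, and Fabp5 in WT survival library 3 at 1968 against 1250 to 1283.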

How the results depend on the processing

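Of the 1794 genes called in the acute comparison, counts under the alternatives ran as low as 693 with a prior variance without trend and 903 without KO acute libraries 1 and 2. Leaving out 1 library gave 983 (WT acute 4) to 1634 (KO acute 4). The members called, 2 in all, became 0 without the trend, 1 without KO acute libraries 1 and 2 (Cpt1a, higher), and 1 to 3 with 1 library left out. The share of acute calls that were lower, 63.8%, was 52.7% after quantile normalization, 50.3% after median-ratio scaling, 52.5% with trends on length, GC content and abundance removed, and 74.3% without KO acute libraries 1 and 2. Acaa1a and Hsd17b10 stayed called under these 3 scalings. Of 587 recomputed values of uncalled members in the acute comparison, 5 became called and 24 changed sign.

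At the endpoint 0 members were called under every alternative run. For all genes, the first wave gave 1 call with a pseudocount of 5, no filter, a minimum mean of 50, quantile normalization, median-ratio scaling, trends removed or a robust prior, 3 without WT survival libraries 1 and 2, which an earlier analysis had set apart, and 0 to 3 with 1 library left out. The 32 calls of the second wave became 14 without the trend, 13 with only the groups compared, 14 without WT survival libraries 1 and 2, and 15 (without WT survival 2) to 140 (without WT survival 3) with 1 left out. The 17 calls between the waves became 1 without the trend, 34 without WT survival libraries 1 and 2, and 1 to 38 with 1 left out. The 3 calls of both waves together became 5 without WT survival libraries 1 and 2, and 2 to 155 with 1 left out, the highest without WT survival 3. The thymocyte and T-ALL markers made up 0.792% and 0.895% in WT survival libraries 1 and 2, against 1.33% in each of libraries 3 and 4. In the same order the neutrophil markers made up 0.0174% and 0.0102%, against 0.00251% and 0.00371%. The erythroid markers made up 0.140% and 0.0938%, against 0.361% and 0.336%. The part of these shares in the calls was not tested, nor were other causes.

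With the replicate number as a block, 1391 genes and 3 members were called in the acute comparison (Crat added, adjusted p = 0.0461), 2 genes between the waves, 34 in the second wave, 2 for both waves and 0 in the first wave, with 0 members at the endpoint. Libraries with the same number did not deviate together (correlations -0.03 to 0.0946). With so few libraries per group a weak pairing might not show, so pairing by number was not excluded.

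Limits: the depth is an estimate, the members' 95% intervals reached a median of 0.51 log2 units to either side in the acute comparison and 0.55 in each wave, which is wider than many of the differences, and no level was compared across tables.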

Other observations

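The spread of the members between libraries of a group was compared with that of the 500 genes nearest in mean level, as the ratio of the residual SD of the fit on the log2 scale to its median among those genes. Among acute libraries 21 of 33 members were above 1, with a median ratio of 1.10, and among survival libraries 16 of 34, with a median of 0.955. Acad10, the little studied dehydrogenase, spread most among acute members at 2.11 and was at 2.33 in the survival table. Ppargc1b was at 2.20 and Acaa2 at 1.96 in the survival table, while Acox3 and Decr1 were at 1.91 each in the acute table. The hydratase gene Echs1 spread least in the survival table at 0.513, and the peroxisomal Hsd17b4 least in the acute table at 0.558.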
